A study of Saccharomyces cerevisiae with 18 samples.

Results

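Heat was compared with salt within 1 yeast genotype. The 3 Saccharomyces cerevisiae H2A S121A libraries taken after 10 min at 39 °C were set against the 3 H2A S121A libraries taken after 15 min in 0.4 M NaCl, 6 of the 18 libraries of the series. They were chosen by their labels alone. Both groups, and the unstressed S121A cells grown in YPD at 30 °C, share 1 genotype. These are MATa cells of the FY406 background in which LEU2 replaces HTA1-HTB1 and TRP1 replaces HTA2-HTB2 on the chromosomes, with the alleles lys2-128delta, ura3-52, trp1delta63, leu2delta1 and his3delta200, and a plasmid carries HTA1-HTB1 with the S121A codon as the only gene source of H2A and H2B. The wild-type (WT) strain, used for the comparison between genotypes, has the same deletions and a plasmid with unchanged HTA1. Per the labels the plasmid marker is HIS3 in replicate 1, HIS4 in replicate 2 and HIS5 in replicate 3 of every group, and whether those names are exact was not tested. Poly(A) RNA was sequenced, and the labels do not say whether replicates were separate cultures, so p-values measure the spread between these samples, which may be technical.

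Heat unfolds proteins, and yeast answers through the factor Hsf1, which binds heat shock elements and activates chaperone genes. High salt draws water from the cell, and the kinase Hog1 then switches on glycerol production and uptake. Both stresses also engage Msn2 and Msn4, which bind the stress response element of many protective genes, and both shut down the genes that build ribosomes. The serine changed in S121A is the residue phosphorylated by the kinase Bub1 near centromeres, where it recruits shugoshin. The comparison asks which genes separate the 2 stresses in these cells, and, from the matching WT libraries, whether that separation differs between genotypes. Heat lasted 10 min and NaCl 15 min, each at a fixed dose. Kind, duration and strength of stress therefore cannot be told apart in any difference below.

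The heated S121A libraries held 39.6 to 47.6 M counts (M for 1000000) and the NaCl libraries 43.1 to 44.6 M. The 10 most abundant genes took 20.7% to 22.4% of the counts in heat and 14.3% to 15.1% in NaCl, and the TMM scaling factors were 0.779 to 0.844 in heat and 0.997 to 1.06 in NaCl. Levels are therefore given as CPM, counts per 1000000 counts after TMM scaling, and 3 counts in 1 library correspond to 0.0785 to 0.0898 CPM in heat and 0.0636 to 0.0688 CPM in NaCl. CPM is a share of all counts and is not per length, so it orders libraries for 1 gene and not genes among themselves. In such whole-culture RNA, fewer cells expressing a gene and less RNA per cell cannot be told apart. The mutated gene, HTA1 (YDR225W, chromosome IV, 915530 to 915928, R64), had 1527, 1449 and 1527 CPM in heat and 781, 996 and 878 CPM in NaCl. It was higher in all 3 heated libraries, with a log2 fold change of 0.76 ± 0.10 (SE of the fit, edgeR adjusted p = 1.06e-06), and the count of a gene does not show the altered codon. Its deleted paralog HTA2 was at 12.3 ± 0.296 CPM in heat and 18.4 ± 0.93 CPM in NaCl (SD, n = 3 each), and reads shared with HTA1 cannot be separated. Of the mating type markers, the 7 a-specific genes summed to 552 to 598 CPM in heat and 1151 to 1215 CPM in NaCl. The 5 alpha-specific genes summed to 53.8 to 84.5 CPM in heat and 87.1 to 104 CPM in NaCl. The alpha pheromone gene MF(ALPHA)1 was at 1.37 CPM in heat and 1.17 CPM in NaCl. The alpha-specific gene SAG1 was at 47.5 CPM in heat and 73.7 CPM in NaCl. The a-specific gene AGA2 was at 30.6 CPM in heat and 47.8 CPM in NaCl. Because CPM does not order genes among themselves, these sums do not test the mating type.

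Of 6395 genes tested, 1956 (30.6%) were higher at 39 °C than in NaCl and 2148 (33.6%) were lower, at an adjusted p under 0.05 in edgeR's two-sided quasi-likelihood test. At least 2-fold differences numbered 421 higher (6.58%) and 637 lower (9.96%). With counts divided by library totals alone, 954 genes were higher and 3415 lower, and the median log2 fold change of all genes moved to -0.35, against -0.03 with TMM. Directions of small differences therefore rest on the scaling, and list counts below are given with that alternative where it turns them. In 4257 genes (66.6%) the 3 heated and the 3 NaCl libraries did not overlap in CPM.

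**Figure D1:**
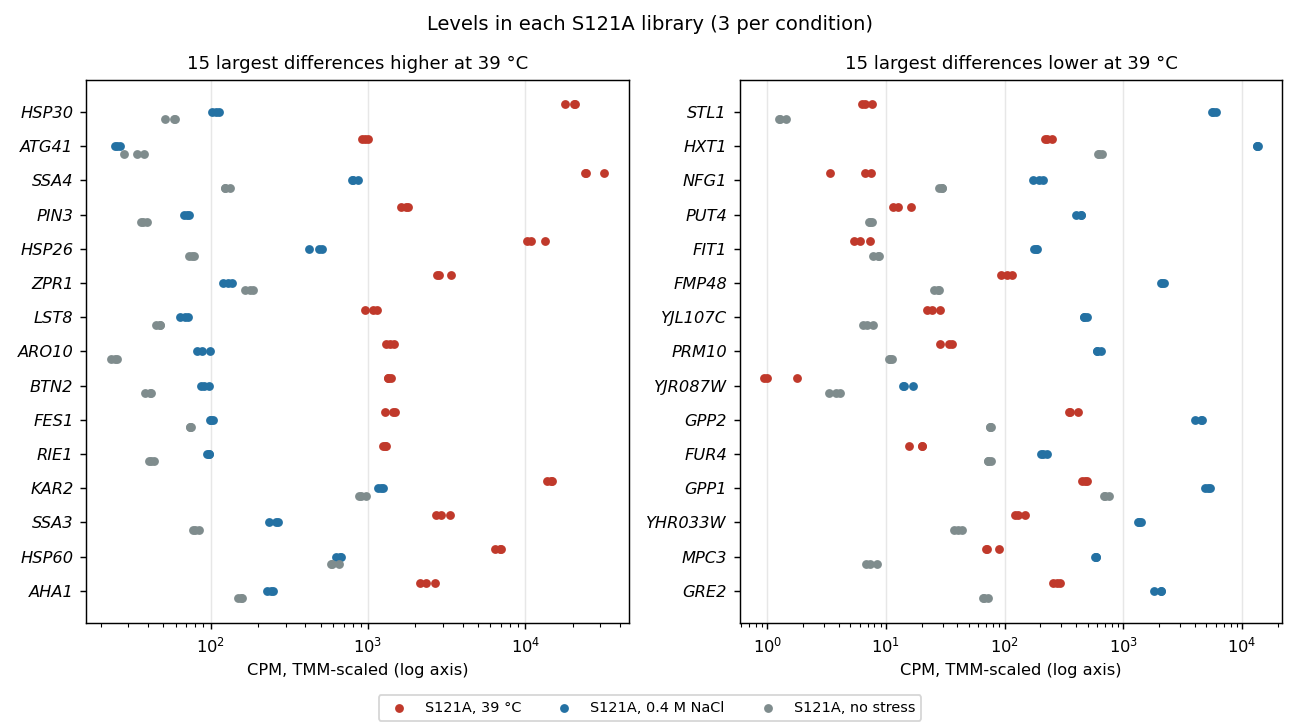
Each point is 1 S121A library, with CPM on a log axis; red is 39 °C, blue is 0.4 M NaCl and grey is no stress. Left are the 15 genes with the largest log2 fold changes higher in heat, and right the 15 with the largest lower in heat. The genes were chosen so that the red and blue points of a gene do not overlap.

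Chaperones and their partners recurred among the 15 largest differences in favour of heat. HSP30, which encodes a plasma membrane protein that restrains the proton pump, had 17814, 20429 and 20829 CPM in heat and 113, 102 and 107 CPM in NaCl. The heated libraries were all far above the NaCl libraries. The difference on the log2 scale was 7.51 ± 0.13 (SE of the fit, with 3 libraries per group), which is 183-fold higher. Without stress S121A cells had 56.6 ± 4.28 CPM (SD, n = 3), and the NaCl libraries were 0.93 above that on the log2 scale. SSA4, a stress-inducible cytosolic Hsp70, had 24396, 24039 and 31736 CPM in heat and 797, 807 and 862 CPM in NaCl, a log2 fold change of 5.02 ± 0.13. Over unstressed cells, against which 40.3% of all genes were called higher and 39.7% lower in heat and 35.8% and 35.3% in NaCl, SSA4 rose by 7.72 ± 0.15 in heat and 2.70 ± 0.12 in NaCl. HSP26, a small heat shock protein that holds unfolded proteins, behaved in the same way, with 10902, 10202 and 13308 CPM in heat and 420.0, 489 and 508 CPM in NaCl (4.60 ± 0.11). The increase over unstressed cells was 7.24 in heat and 2.64 in NaCl. BTN2, which sorts misfolded proteins into deposits, had 1403, 1348 and 1346 CPM in heat and 87.1, 90.5 and 97.7 CPM in NaCl (3.90 ± 0.11).

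Several of the 15 were moved little, or in the opposite direction, by NaCl. ATG41, an autophagy gene, had 922, 961 and 1002 CPM in heat and 26.5, 25.3 and 24.7 CPM in NaCl, with 34.0, 28.0 and 37.8 CPM in unstressed cells. The log2 fold change of heat over NaCl was 5.24 ± 0.14, while NaCl itself stood -0.38 ± 0.12 relative to no stress (adjusted p = 0.00803). ZPR1, which helps fold the elongation factor eEF1A, had 2821, 2727 and 3393 CPM in heat and 120.5, 129.6 and 137 CPM in NaCl. It was 4.07 above unstressed cells in heat and -0.46 relative to them in NaCl. HSP60, the mitochondrial chaperonin, was at 6906, 6464 and 7039 CPM in heat and 629, 660.0 and 673 CPM in NaCl, a difference of 3.38 ± 0.08. Against unstressed cells it changed by 3.48 ± 0.08 in heat, and by 0.10 ± 0.08 in NaCl (adjusted p = 0.261), a value that turned to -0.19 (adjusted p = 0.00124) with library totals alone. KAR2, the Hsp70 of the endoplasmic reticulum, had 14466, 13774 and 14861 CPM in heat and 1160.0, 1216 and 1244 CPM in NaCl (3.57 ± 0.08), where it stood 0.39 above unstressed cells. LST8, a subunit of the TOR complexes, had 1071, 962 and 1139.8 CPM in heat and 63.7, 72.3 and 68.5 CPM in NaCl (3.96 ± 0.09), 0.54 above unstressed cells. In each of these 5 genes the heated libraries lay above all NaCl libraries, which the rule that named them required. The remaining 6 were PIN3 (4.61), ARO10, an enzyme of amino acid breakdown (3.94), the Hsp70 exchange factor FES1 (3.79), the RNA-binding protein gene RIE1 (3.72), the Hsp70 gene SSA3 (3.55) and the Hsp90 activator AHA1 (3.32). All 15 were called under each of the 12 alternatives tried.

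Promoter letters were searched in the 300 bases before each start codon, on both strands, in 5854 protein-coding genes tested. A heat shock element was taken as 3 alternating units of GAA and TTC with 2 bases between units, starting with either. It stood before 5 of the 15 genes (33.3%), 21 of 364 genes at least 2-fold higher in heat (5.77%), 6 of 529 genes at least 2-fold lower (1.13%) and 52 of all 5854 (0.888%). The 5 were ZPR1, LST8, FES1, KAR2 and HSP60. LST8 and KAR2 held more than 1 such run and are shown for that reason, chosen after the counts were seen, and SSA4 is shown as the third largest difference. The windows of HSP30 and ATG41, the largest and the second largest differences, held none of the letters searched. The 2-unit form GAANNTTC was before 7 of the 15 genes (46.7%). It differed less between directions, before 17% of genes at least 2-fold higher, 15.1% of those at least 2-fold lower and 11.7% of all. The bases from 300 to 151 before the start codon are printed from the RefSeq R64 genome, 5′ to 3′ on the gene's strand, with matches in capitals.
SSA4 chrV:364289-364438 (+): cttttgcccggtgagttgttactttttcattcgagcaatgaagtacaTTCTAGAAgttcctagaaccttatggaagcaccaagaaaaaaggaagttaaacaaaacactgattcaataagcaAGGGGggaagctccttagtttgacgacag
LST8 chrXIV:619767-619916 (+): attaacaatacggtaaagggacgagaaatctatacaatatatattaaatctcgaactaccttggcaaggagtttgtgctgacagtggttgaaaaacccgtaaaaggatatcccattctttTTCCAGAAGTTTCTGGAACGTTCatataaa
KAR2 chrX:381027-381176 (+): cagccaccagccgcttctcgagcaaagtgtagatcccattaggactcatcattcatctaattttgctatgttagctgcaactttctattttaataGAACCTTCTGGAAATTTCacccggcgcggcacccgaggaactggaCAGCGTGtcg
In LST8, 3 overlapping elements run from base 180 to base 158 before the start codon. The same gap of 501 bases lies before SIS1, an Hsp40 gene read in the other direction, which was also higher in heat (2.82). In KAR2, 2 overlapping elements run from base 205 to base 188, and CAGCGTG, the core letters of the unfolded protein response element, from base 160 to base 154. CAGCGTG was before 1.25% of all genes. SSA4 held TTCTAGAA, a pair of units in the order TTC then GAA, at bases 253 to 246, and AGGGG, the core of the stress response element, at bases 179 to 175. TTCNNGAA was searched after the first counts were seen and was before 13.2% of all genes, and AGGGG or its reverse was before 22.4%. TTCNNGAA was before 20.6% of genes at least 2-fold higher in heat and 12.5% of those at least 2-fold lower. A match is a description of letters and shows no binding.

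Glycerol genes and several transporters were among the 15 largest differences in favour of NaCl. STL1, the glycerol importer of the plasma membrane, had 6.28, 6.62 and 7.56 CPM in heat and 6019, 5692 and 5560.2 CPM in NaCl. The NaCl libraries were all higher, with -9.72 ± 0.15 for heat over NaCl on the log2 scale, which is 844-fold lower in heat. Heat still raised STL1 over unstressed cells, which had 1.29, 1.26 and 1.43 CPM, by 2.36 ± 0.14, against 12.08 ± 0.16 in NaCl. GPP1 and GPP2, the phosphatases of the last step of glycerol synthesis, differed in their heat value. GPP2 had 355, 346 and 417 CPM in heat and 4022, 4500.3 and 4609 CPM in NaCl (-3.55 ± 0.08), and was 2.29 above unstressed cells in heat and 5.85 above them in NaCl. GPP1 had 491, 449.7 and 477 CPM in heat and 4848, 5152 and 5370.1 CPM in NaCl (-3.44 ± 0.08), and was -0.60 relative to unstressed cells in heat and 2.84 in NaCl. GPD1, the first enzyme of the pathway, was raised by both, with 2678, 2549 and 2435 CPM in heat, 10416, 10231 and 10218 CPM in NaCl and 332, 288 and 305 CPM without stress.

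HXT1, a low-affinity glucose transporter, had 219, 251 and 225 CPM in heat and 13563, 13332 and 13269 CPM in NaCl, a log2 fold change of -5.85 ± 0.11. It moved in opposite directions from the 658, 606 and 621 CPM of unstressed cells, by -1.44 ± 0.09 in heat and 4.41 ± 0.10 in NaCl. FUR4, the uracil permease, did the same, at 20.0, 20.1 and 15.7 CPM in heat and 229, 201 and 212 CPM in NaCl, with -1.99 and 1.53 relative to no stress. NFG1, a regulator of filamentous growth, was at 7.48, 6.68 and 3.40 CPM in heat and 212, 172 and 193 CPM in NaCl (-5.04 ± 0.21). PUT4, the proline permease, was at 12.7, 11.5 and 16.3 CPM in heat and 438, 441 and 402 CPM in NaCl (-4.98 ± 0.15). FIT1, a cell wall mannoprotein that retains siderophores, was at 6.10, 7.31 and 5.42 CPM in heat and 188, 184 and 177 CPM in NaCl (-4.87 ± 0.13). In each of these genes the heated libraries lay below all NaCl libraries, which the rule that named them required. PRM10 and YJL107C, which overlap by a few bases on 1 strand of chromosome X, both differed by -4.24, and how reads over the overlap were assigned is not stated in the labels. The others of the 15 were FMP48 (-4.35), YJR087W (-3.60), YHR033W (-3.35), the mitochondrial pyruvate carrier MPC3 (-2.93) and the methylglyoxal reductase GRE2 (-2.85), and all 15 were called under each of the 12 alternatives.

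The promoter parts of STL1 and HXT1, the largest differences in favour of NaCl with a start codon in the reference, are shown because both hold letters of factors known from salt stress. Capitals mark the matches, over the same bases 300 to 151 before the start codon.
STL1 chrIV:1507705-1507854 (+): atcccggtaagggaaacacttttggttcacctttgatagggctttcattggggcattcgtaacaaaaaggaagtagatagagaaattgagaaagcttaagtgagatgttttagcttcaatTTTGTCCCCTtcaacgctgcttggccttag
HXT1 chrVIII:292776-292925 (-): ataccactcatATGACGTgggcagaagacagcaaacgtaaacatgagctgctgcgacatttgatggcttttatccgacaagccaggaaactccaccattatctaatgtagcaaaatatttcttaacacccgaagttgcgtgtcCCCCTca
STL1 held TTTGTCCC, the reverse of GGGACAAA searched for Hot1, at bases 180 to 173, overlapping CCCCT at bases 175 to 171. GGGACAAA was before 0.769% of all genes and 1.32% of the genes at least 2-fold lower in heat. HXT1 held ATGACGT, searched for Sko1, at bases 289 to 283 and CCCCT at bases 157 to 153. ATGACGT was before 1.88% of all genes and 1.89% of those at least 2-fold lower in heat. NFG1, the third largest, held none of the letters in its window.

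**Figure D2:**
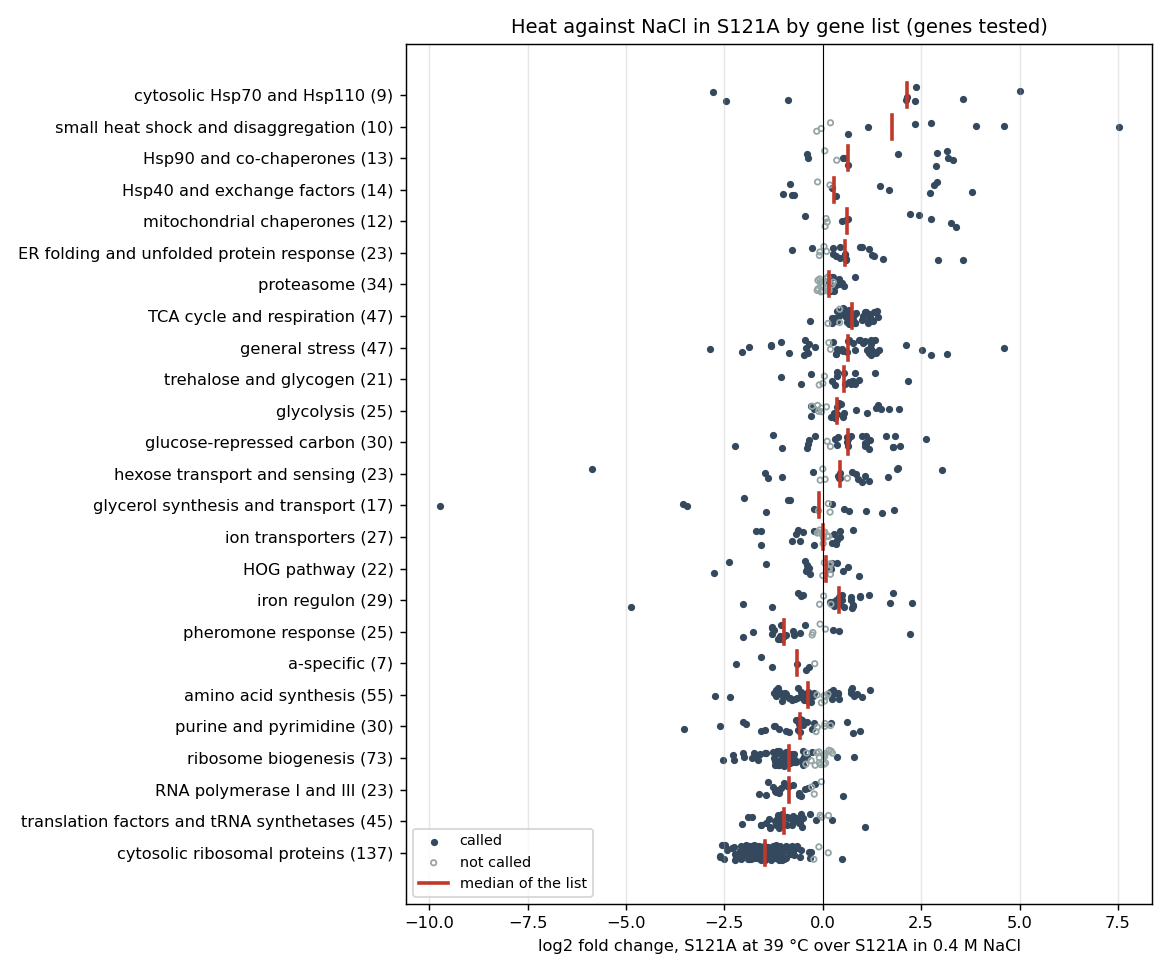
Log2 fold change of heat over NaCl in S121A for each gene of 25 lists (number tested in brackets); filled points were called at an adjusted p under 0.05, open points were not, and red lines are list medians. The point furthest right is HSP30 at 7.51, the 2 furthest left are STL1 at -9.72 and HXT1 at -5.85, and cytosolic ribosomal proteins have a median of -1.46.

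Chaperones of the cytosol had the 2 highest medians of the 46 lists. Of 10 small heat shock and disaggregation genes 7 were higher in heat and 0 lower, with a median log2 fold change of 1.75 (7 and 2 with library totals alone), beside -0.03 over all genes tested. HSP104, the disaggregase, had 15066, 14649.8 and 16801 CPM in heat and 2209.6, 2318 and 2399 CPM in NaCl (2.75 ± 0.09). Of 9 cytosolic Hsp70 and Hsp110 genes 6 were higher and 3 lower, with a median of 2.14. The lower ones included SSB1 and SSB2, Hsp70s that ride on ribosomes, at 276 ± 13.7 CPM in heat and 1917 ± 165 CPM in NaCl for SSB1 and 414 ± 18.6 CPM in heat and 2265 ± 187 CPM in NaCl for SSB2 (SD, n = 3 each). Their differences were -2.80 ± 0.10 and -2.45 ± 0.10, and the near-identical pair can share reads. Of 13 Hsp90 and co-chaperone genes 9 were higher and 2 lower, with a median of 0.64 (7 and 3 with a median of 0.32 with library totals alone), led by AHA1 and by the Hsp90 partners CPR6 (3.19), HCH1 (3.16) and STI1 (2.91). HCH1 was above unstressed cells in heat (2.71) and below them in NaCl (-0.45). Of 14 Hsp40 and exchange factor genes 8 were higher and 4 lower, with YDJ1 at 2.90, SIS1 at 2.82 and APJ1 at 2.72. The median of that list was 0.28, or -0.04 with library totals alone, where 6 were higher and 5 lower.

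Chaperones of the organelles followed heat as well. Of 12 mitochondrial chaperone genes 8 were higher and 1 lower, with a median of 0.62, or 6 and 3 with a median of 0.29 with library totals alone. HSP78, the mitochondrial disaggregase, had 3547, 3649.7 and 3714 CPM in heat and 376, 367 and 390.4 CPM in NaCl (3.27 ± 0.07), and HSP10, the partner of HSP60, differed by 2.75 ± 0.09. Of 23 genes of folding in the endoplasmic reticulum and the unfolded protein response 17 were higher and 2 lower, with a median of 0.57, or 12 and 6 with a median of 0.25 with library totals alone. ERO1, which makes disulphide bonds, had 1012, 1111 and 918 CPM in heat and 140.2, 123 and 136 CPM in NaCl (2.93 ± 0.08), and HAC1, the factor of the unfolded protein response, 614, 602 and 727 CPM in heat and 229, 234 and 211 CPM in NaCl (1.53 ± 0.10). Relative to unstressed cells HAC1 was 1.60 in heat and 0.07 in NaCl (adjusted p = 0.526).

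Protein breakdown differed less. Of 34 proteasome genes 16 were higher in heat and 0 lower, with a median of 0.17. With library totals alone the list turned, with 3 higher, 13 lower and a median of -0.16, and without single S121A libraries 11 to 17 were higher. RPN4, the activator of proteasome genes, had 327, 316 and 311 CPM in heat and 185, 177 and 183 CPM in NaCl (0.81 ± 0.07). Of 9 ubiquitin genes 6 were higher, including the polyubiquitin gene UBI4 at 2.27 ± 0.09 and the conjugating enzyme UBC4 at 1.84 ± 0.08, and with library totals alone 3 were higher and 3 lower.

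Lists of salt adaptation genes were mixed, with shares to be read beside 30.6% higher and 33.6% lower over all genes. Of 17 glycerol synthesis and transport genes 6 were higher in heat and 8 lower. At least 2-fold, 3 were higher and 5 lower, beside 6.58% and 9.96% of all genes. Of 27 ion transporter genes 7 were higher and 10 lower, near the shares of all genes, and with library totals alone 0 were higher and 18 lower. ENA1, the sodium pump, had 284, 263 and 310.2 CPM in heat and 898, 968 and 921 CPM in NaCl (-1.70 ± 0.10), and was raised over unstressed cells by 1.73 in heat and 3.44 in NaCl. Its near-identical neighbours ENA2 (-1.57) and ENA5 (-1.58) can share its reads. Of 22 HOG pathway genes 6 were higher and 9 lower, or 2 and 12 with library totals alone. Those furthest lower were PTP3, a phosphatase that acts on Hog1, at 5.73, 6.23 and 4.16 CPM in heat and 41.8, 32.1 and 34.7 CPM in NaCl (-2.76 ± 0.14), and the kinase RCK1 at 6.15, 5.78 and 6.72 CPM in heat and 30.6, 33.3 and 33.7 CPM in NaCl (-2.39 ± 0.12). The mucin-like sensor MSB2 was also lower (-1.43), while RCK2, a kinase that Hog1 acts on, was higher (0.93). Of 30 stress transcription factor genes 12 were higher and 13 lower, or 8 and 17 with library totals alone, with CIN5 (-1.54) and NRG2 (-1.69) lower and PHD1 (1.39) higher in heat.

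The shared protective genes stood far above unstressed levels in both stresses. The 47 general stress genes had a median of 4.70 above unstressed cells in heat and 4.05 in NaCl, and directly compared 32 were higher in heat and 13 lower. TMA10, a small stress protein, had 2027, 1818 and 2715 CPM in heat, 199.5, 263 and 268 CPM in NaCl and 11.04, 10.7 and 10.6 CPM without stress (3.17 ± 0.15 for heat over NaCl). Of 21 trehalose and glycogen genes 15 were higher in heat and 3 lower. GPH1, glycogen phosphorylase, had 4581, 4682 and 4151 CPM in heat and 1015, 998 and 980.1 CPM in NaCl (2.16 ± 0.09), whereas TPS2, the trehalose phosphatase, had 2470.2, 2480.0 and 2433 CPM in heat and 5063, 5084 and 5173 CPM in NaCl (-1.05 ± 0.07). Of 30 oxidative stress genes 20 were higher and 7 lower, led by the enoate reductases OYE3 (1.89) and OYE2 (1.60). Of 19 small stress proteins and hydrophilins 8 were higher and 8 lower, with HBT1 (-2.49) and GRE1 (-1.88) lower. Of 22 autophagy and vacuole genes 16 were higher and 2 lower, among them the vacuolar protease PRB1 (1.23) and its inhibitor PBI2 (1.18). With library totals alone 6 hydrophilins were higher and 10 lower, and 6 autophagy genes higher and 5 lower.

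**Figure D3:**
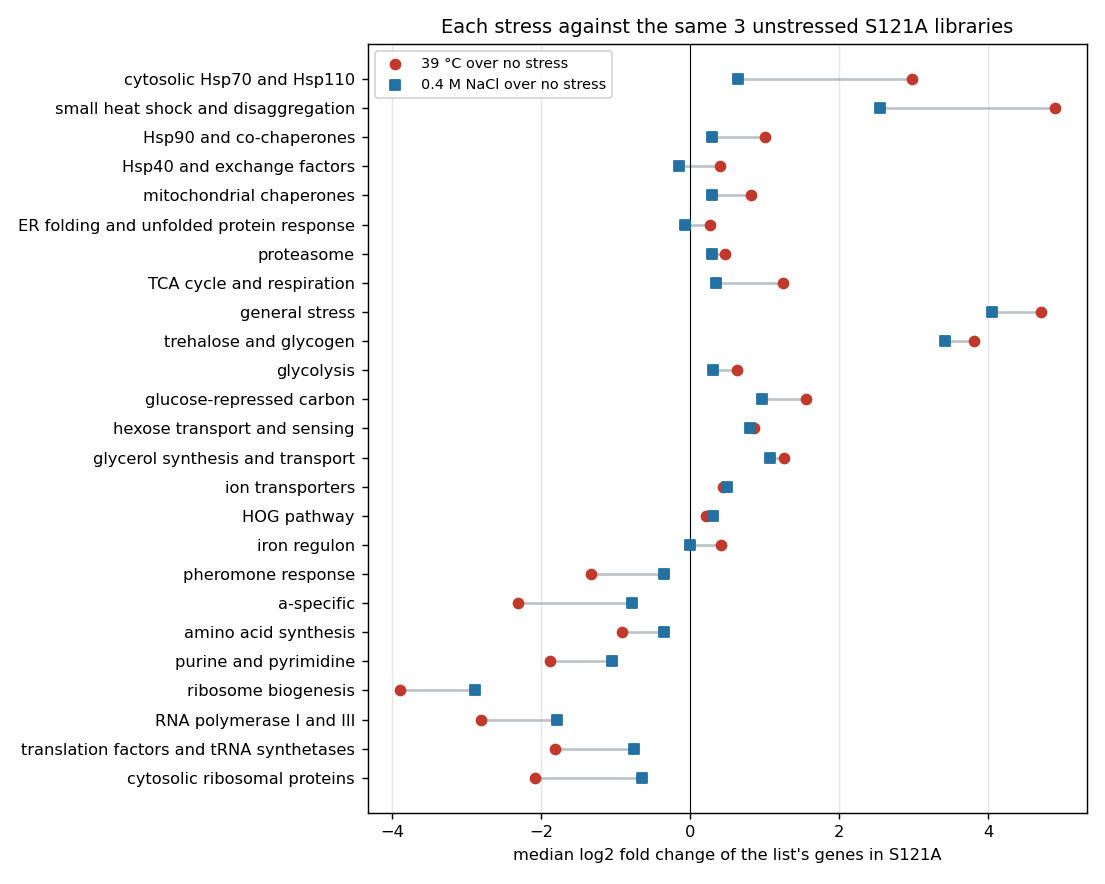
Median log2 fold change of each list in heat (red circles) and in NaCl (blue squares) over the same 3 unstressed S121A libraries, which both comparisons share. General stress genes reach 4.70 in heat and 4.05 in NaCl, and ribosome biogenesis genes -3.89 in heat and -2.90 in NaCl.

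Most energy genes were higher in heat. Of 47 genes of the tricarboxylic acid cycle and respiration 43 were higher and 1 lower, with a median of 0.74, and 34 higher and 1 lower with library totals alone. FUM1, fumarase, had 554, 507 and 565 CPM in heat and 196, 219.8 and 212 CPM in NaCl (1.37 ± 0.08), and IDH2, isocitrate dehydrogenase, 1961, 1791 and 1625 CPM in heat and 749.6, 742 and 747 CPM in NaCl (1.26 ± 0.11). The list's median over unstressed cells was 1.24 in heat and 0.34 in NaCl. Of 30 glucose-repressed carbon genes 21 were higher and 7 lower, with the regulator SIP4 (2.61) and the acetyl-carnitine transferase CAT2 (1.96) higher. The glyoxylate enzyme ICL1 was lower, at 18.2, 16.5 and 22.1 CPM in heat and 81.8, 89.3 and 94.5 CPM in NaCl (-2.22 ± 0.10), and its heated libraries lay around the unstressed 20.5, 18.7 and 17.8 CPM. Of 25 glycolysis genes 16 were higher and 3 lower, led by the minor isoenzymes PYK2 (1.93) and GPM2 (1.68), and 9 and 9 with library totals alone. Of 23 hexose transport and sensing genes 14 were higher and 5 lower, or 9 and 7 with library totals alone. HXT2, a high-affinity transporter, was the reverse of HXT1, at 3763, 4191 and 3695 CPM in heat and 473, 485 and 474 CPM in NaCl (3.02 ± 0.11). HXT6 (1.92) and HXT7 (1.87), a near-identical high-affinity pair whose reads cannot be separated, were higher in heat too.

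Most genes for making ribosomes and protein were lower in heat than in NaCl, and the list medians were below unstressed cells in both. Among 137 cytosolic ribosomal protein genes, 133 fell below NaCl and 1 was higher. Their median was -1.46, and over unstressed cells the median was -2.09 in heat and -0.65 in NaCl. RPS0B had 269, 278 and 289.8 CPM in heat, 1504, 1788 and 1648 CPM in NaCl and 2607, 2267 and 2422 CPM without stress (-2.56 ± 0.09 for heat over NaCl). Many of these genes are paired copies that can share reads. Among 73 ribosome biogenesis genes 54 were below NaCl and 2 above, and the median was -0.85. GAR1, of the snoRNPs that modify ribosomal RNA, had 12.7, 11.8 and 13.1 CPM in heat and 68.1, 74.5 and 76.6 CPM in NaCl (-2.54 ± 0.08), and NOP7, of large subunit assembly, 5.86, 6.50 and 5.51 CPM in heat and 28.9, 28.2 and 29.6 CPM in NaCl (-2.28 ± 0.09). Their unstressed levels were 255, 242 and 230.4 CPM for GAR1 and 167, 168 and 151 CPM for NOP7. Of 23 RNA polymerase I and III genes 19 were lower and 1 higher, including RPC40, a subunit of both enzymes (-1.62 ± 0.10). Of 45 translation factor and tRNA synthetase genes 40 were lower and 2 higher, including the initiation factor TIF4631 (-2.04 ± 0.08) and the elongation factor YEF3 (-1.91 ± 0.09).

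The ribosome biogenesis promoters carried letters known from this group. GCGATGAG, the PAC element, was in the 300 bases before 37 of the 73 genes (50.7%), and AAAAATTT, the RRPE element, before 63 (86.3%). Over all 5854 promoters the shares were 4.15% and 15.4%. Among genes at least 2-fold lower in heat they were 12.3% for PAC and 30.2% for RRPE, and among the 364 genes at least 2-fold higher 4 held PAC and 7.69% RRPE. Among these genes the core stress response element AGGGG ran the other way, before 35.2% of those at least 2-fold higher and 17.2% of those at least 2-fold lower. The largest differences did not follow this. AGGGG was before 2 of the 15 largest higher (13.3%) and 4 of the 14 largest lower with a promoter in the reference (28.6%), beside 22.4% of all. GGTGGCAAA, the proteasome-associated element, was before 27 of the 34 proteasome genes (79.4%) and 1.23% of all.

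Most genes of amino acid and nucleotide synthesis were lower in heat, while sulfur, sterol and cell wall genes were split. Of 55 amino acid synthesis genes 35 were lower and 14 higher, or 42 and 7 with library totals alone. ILV3, of branched-chain synthesis, had 61.8, 59.4 and 64.04 CPM in heat and 382, 433 and 423 CPM in NaCl (-2.74 ± 0.08), and the homocitrate synthase LYS20 56.7, 52.0 and 62.0 CPM in heat and 281, 301 and 301 CPM in NaCl (-2.37 ± 0.07). Relative to unstressed cells LYS20 was -1.54 in heat and 0.83 in NaCl, and its paralog LYS21 can share its reads. Of 30 purine and pyrimidine genes 21 were lower and 4 higher, with URA1 (-2.03) and APT1 (-1.95) lower. Of 28 methionine and sulfur genes 7 were higher and 6 lower, or 5 and 18 with library totals alone, with SAM1, an S-adenosylmethionine synthetase, lower (-2.40 ± 0.09). Of 30 ergosterol genes 12 were higher and 12 lower (5 and 18 with library totals alone), and of 29 lipid and inositol genes 6 were higher and 13 lower (5 and 22), with the fatty acid elongase ELO2 lower (-1.54) and the regulator INO2 higher (1.43). Of 55 cell wall genes 23 were higher and 22 lower, or 15 and 30 with library totals alone. TIP1, a cell wall mannoprotein, had 2549, 2722 and 2459 CPM in heat and 379, 402 and 365 CPM in NaCl (2.75 ± 0.08), whereas the glucanase SCW10 had 92.0, 101 and 97.9 CPM in heat and 409.6, 417 and 409 CPM in NaCl (-2.08 ± 0.09).

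Most mating genes were lower in heat. Among 25 pheromone response genes 18 were below NaCl and 3 above. The median was -0.99, and 14 of the 25 (56%) had TGAAACA, the letters bound by Ste12, in the 300 bases before the start codon, against 7.09% of all genes. STE12 itself had 11.7, 10.99 and 12.9 CPM in heat and 51.0, 44.0 and 48.8 CPM in NaCl (-2.02 ± 0.10), and FUS1, of cell fusion, 16.4, 14.8 and 17.4 CPM in heat and 51.0, 54.9 and 59.9 CPM in NaCl (-1.77 ± 0.09). PRM5, known also from cell wall stress, was the reverse, at 132, 138 and 126 CPM in heat and 30.7, 27.1 and 27.3 CPM in NaCl (2.22 ± 0.08). Of 7 a-specific genes 6 were lower, with the protease gene BAR1 at -2.19 ± 0.07 and the exporter STE6 at -1.57 ± 0.08. Of 5 alpha-specific genes 1 was higher and 2 lower. MF(ALPHA)2, a pheromone gene, was at -0.70 and the agglutinin gene SAG1 at -0.63. The receptor STE3 was higher, at 13.8, 17.6 and 9.96 CPM in heat and 9.33, 5.31 and 6.45 CPM in NaCl (0.97 ± 0.19), and its heated libraries were all above its NaCl libraries.

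Other lists held genes called in both directions, beside 30.6% higher and 33.6% lower over all genes. Of 20 phosphate genes 11 were higher in heat and 3 lower, and of 13 zinc genes 2 were higher and 6 lower. With library totals alone the phosphate counts were 5 higher and 8 lower. Of 21 amino acid permease genes 8 were higher and 7 lower, the higher count being 5 without S121A NaCl replicate 2 or S121A heat replicate 2. Of 24 DNA damage genes 11 were higher and 2 lower, or 3 and 6 with library totals alone. Of 22 multidrug and weak acid pump genes 9 were higher and 4 lower, or 6 and 10 with library totals alone. Of 30 meiosis and sporulation genes 7 were higher and 12 lower. The counts of permease and meiosis genes lay near the shares of all genes.

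Histone genes and genes that act with the changed serine were examined by name. BUB1, the kinase of the H2A serine, had 17.9, 16.7 and 17.5 CPM in heat and 2.69, 2.37 and 2.66 CPM in NaCl, a log2 fold change of 2.75 ± 0.10 (edgeR adjusted p = 9.20e-15). It was 1.11 ± 0.09 relative to unstressed cells in heat and -1.64 ± 0.10 in NaCl, and the same difference in WT was 2.91 ± 0.10. SGO1, which encodes shugoshin, went the other way, at 5.18, 4.37 and 4.88 CPM in heat and 11.9, 10.8 and 11.3 CPM in NaCl (-1.23 ± 0.13). Of 23 centromere, shugoshin and checkpoint genes 5 were higher and 2 lower, beside 64.2% of all genes called in either direction. Without S121A heat replicate 1, 3 were higher, and with library totals alone 2 were higher and 11 lower. Of 11 histone genes 6 were higher and 2 lower, or 3 and 4 with library totals alone. HHT2, an H3 gene, had 937, 832 and 916 CPM in heat and 475, 549 and 538 CPM in NaCl (0.78 ± 0.08), while HTB1, the H2B gene on the plasmid, was lower (-0.37 ± 0.09). HHF1 (0.35 ± 0.12, adjusted p = 0.0166) was not called without S121A NaCl replicate 1 (adjusted p = 0.101) or S121A heat replicate 3 (adjusted p = 0.0898), nor HHO1 without the second of these (adjusted p = 0.0512), and with library totals alone HHF1 (0.03), HHF2 (0.28) and HHO1 (0.05) were not called. G1/S genes were lower in 13 of 32 cases and higher in 6, and G2/M genes lower in 8 and higher in 6 of 24 (5 lower without S121A NaCl replicate 3). With library totals alone the G1/S counts were 21 lower and 3 higher and the G2/M counts 14 and 1. The strain markers differed too, with LEU2 at 0.55 ± 0.08 and URA3, an ura3-52 allele here, at -1.48 ± 0.21. HIS3 was 0.46 ± 0.10, and 0.14 (adjusted p = 0.0894) with library totals alone.

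**Figure D4:**
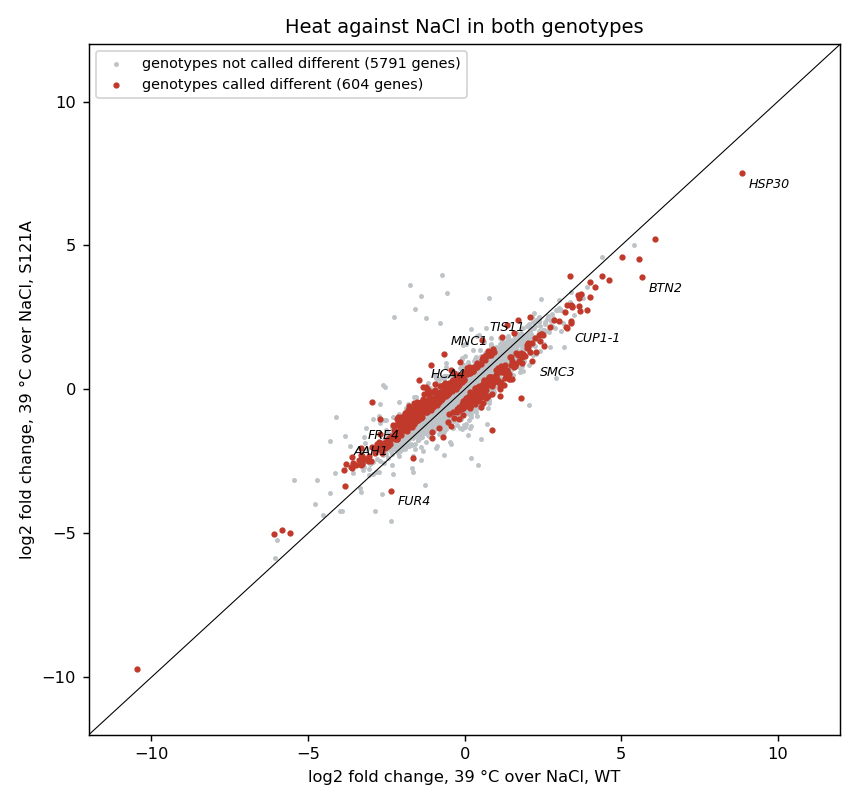
Log2 fold change of heat over NaCl in WT (horizontal) and in S121A (vertical), 1 point per gene tested; red points are the 604 genes whose differences were called different between genotypes and the line marks equal values. Points follow the line, with a Pearson r of 0.898, and the labelled genes are among those named for a difference between genotypes.

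The same comparison in WT, which shares no library with it, is given beside it. Across 6395 genes, which are not independent replicates, the log2 fold changes in S121A and WT had a Pearson r of 0.898 and a Spearman rho of 0.876. In WT 2104 genes (32.9%) were higher in heat and 2122 (33.2%) lower, 66.1% in either direction, and 7.71% were higher and 12% lower by at least 2-fold. Higher in both were 1600 genes, 81.8% of the S121A calls and 76.0% of the WT calls, and lower in both were 1776, 82.7% of the S121A and 83.7% of the WT calls. Of the genes higher in S121A, 15 were lower in WT, and of the genes lower in S121A, 15 were higher in WT. Of 1058 genes at least 2-fold apart in S121A, 1044 had the same sign in WT. Their median log2 fold change, counted as positive in the S121A direction of each gene, was 1.39 in S121A and 1.56 in WT. This describes genes chosen by their S121A value.

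The difference between genotypes was tested gene by gene as heat minus NaCl in S121A less heat minus NaCl in WT. It was higher in S121A in 379 genes (5.93%) and lower in 225 (3.52%), 9.44% in either direction, of which 36 (0.563% of all) and 22 (0.344%) differed at least 2-fold. These counts rest on single libraries: without WT heat replicate 1 they were 768 and 724. The higher count was 229 without S121A NaCl replicate 3, 243 without WT heat replicate 2 and 234 without WT heat replicate 3. The lower count was 94 to 129 without any 1 of those 3 libraries, WT NaCl replicate 2 or S121A heat replicate 1. With only the 4 groups compared, 190 were higher and 73 lower. Of the 379, 309 were lower in heat in WT, and 231 were lower and 85 higher in heat in S121A. Of the 225, 176 were higher in heat in WT, and 100 were higher and 64 lower in heat in S121A. These directions share libraries with the difference that chose the genes.

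The largest positive differences belonged to genes with unlike roles. MNC1 was higher in heat in S121A, at 40.5, 43.0 and 41.5 CPM in heat and 19.3, 16.9 and 17.2 CPM in NaCl (1.22 ± 0.11), and lower in heat in WT, at 12.8, 8.65 and 9.75 CPM in heat and 17.5, 16.6 and 15.4 CPM in NaCl (-0.67 ± 0.12). The difference between genotypes was 1.89 ± 0.16 (SE, edgeR adjusted p = 1.06e-06), and the S121A heated libraries stood above the other 3 groups. HCA4, an RNA helicase of ribosome assembly, had 12.1, 11.5 and 10.96 CPM in heat and 11.3, 10.8 and 10.7 CPM in NaCl in S121A (0.08 ± 0.09, adjusted p = 0.462), and 1.46, 1.20 and 1.42 CPM in heat and 3.08, 4.09 and 3.01 CPM in NaCl in WT (-1.32 ± 0.12). Both S121A groups lay above both WT groups, and the difference was 1.401 ± 0.16. AAH1, adenine deaminase, was lower in heat in both genotypes, at 4.51 ± 0.169 CPM in heat and 27.3 ± 0.732 CPM in NaCl in S121A and 1.099 ± 0.122 CPM in heat and 15.0 ± 3.17 CPM in NaCl in WT (SD, n = 3 each), and less so in S121A (1.18 ± 0.19). FLO10, a cell surface adhesin, was also lower in heat in both (-0.94 ± 0.09 in S121A and -2.13 ± 0.10 in WT, a difference of 1.18 ± 0.13). RTT105 was at 10.3, 9.31 and 11.4 CPM in heat and 8.02, 10.1 and 8.88 CPM in NaCl in S121A, which did not pass the test (0.20 ± 0.11, adjusted p = 0.117), and at 5.74, 5.04 and 4.66 CPM in heat and 9.63, 9.67 and 10.6 CPM in NaCl in WT (1.16 ± 0.16 between genotypes). RTT105 begins 284 bases downstream of SSA4 and HCA4 461 bases downstream of KAR2, each on the strand of its neighbour. KAR2 differed between genotypes by -0.60 ± 0.10, while SSA4, at -0.39 ± 0.15, did not pass the test (adjusted p = 0.117).

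Iron regulon genes were the list with the largest share called in this difference. Of 29 iron regulon genes 21 were called higher in S121A in this difference and 1 lower, beside 5.93% and 3.52% of all genes. The count higher was 17 to 24 with single libraries left out and 18 with the 4 groups alone. The median difference was 0.53, with a median of 0.42 for heat over NaCl in S121A and -0.06 in WT. SIT1, a siderophore transporter, had 23.4, 27.8 and 23.5 CPM in heat and 27.3, 23.5 and 22.7 CPM in NaCl in S121A (0.02 ± 0.10, adjusted p = 0.863), and 18.7, 14.01 and 15.5 CPM in heat and 37.3, 36.2 and 36.1 CPM in NaCl in WT (-1.19 ± 0.10). The WT libraries separated the 2 stresses and the S121A libraries overlapped, a difference of 1.21 ± 0.14. FRE4, a ferric reductase, was lower in heat in both, at 5.84 ± 0.385 CPM in heat and 23.8 ± 1.02 CPM in NaCl in S121A and 4.32 ± 1.11 CPM in heat and 42.4 ± 3.80 CPM in NaCl in WT (SD, n = 3 each), with 1.28 ± 0.18 between genotypes. TIS11, which marks messenger RNAs for decay when iron is short, was higher in heat in both, by 1.72 ± 0.13 in S121A and 0.56 ± 0.13 in WT (1.16 ± 0.18). Within S121A, 20 of the 29 iron genes were higher in heat and 6 lower (12 and 8 with library totals alone), and the extremes were FRE5 (2.26, at 2.70 ± 0.563 CPM in heat) and FIT1 (-4.87).

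**Figure D5:**
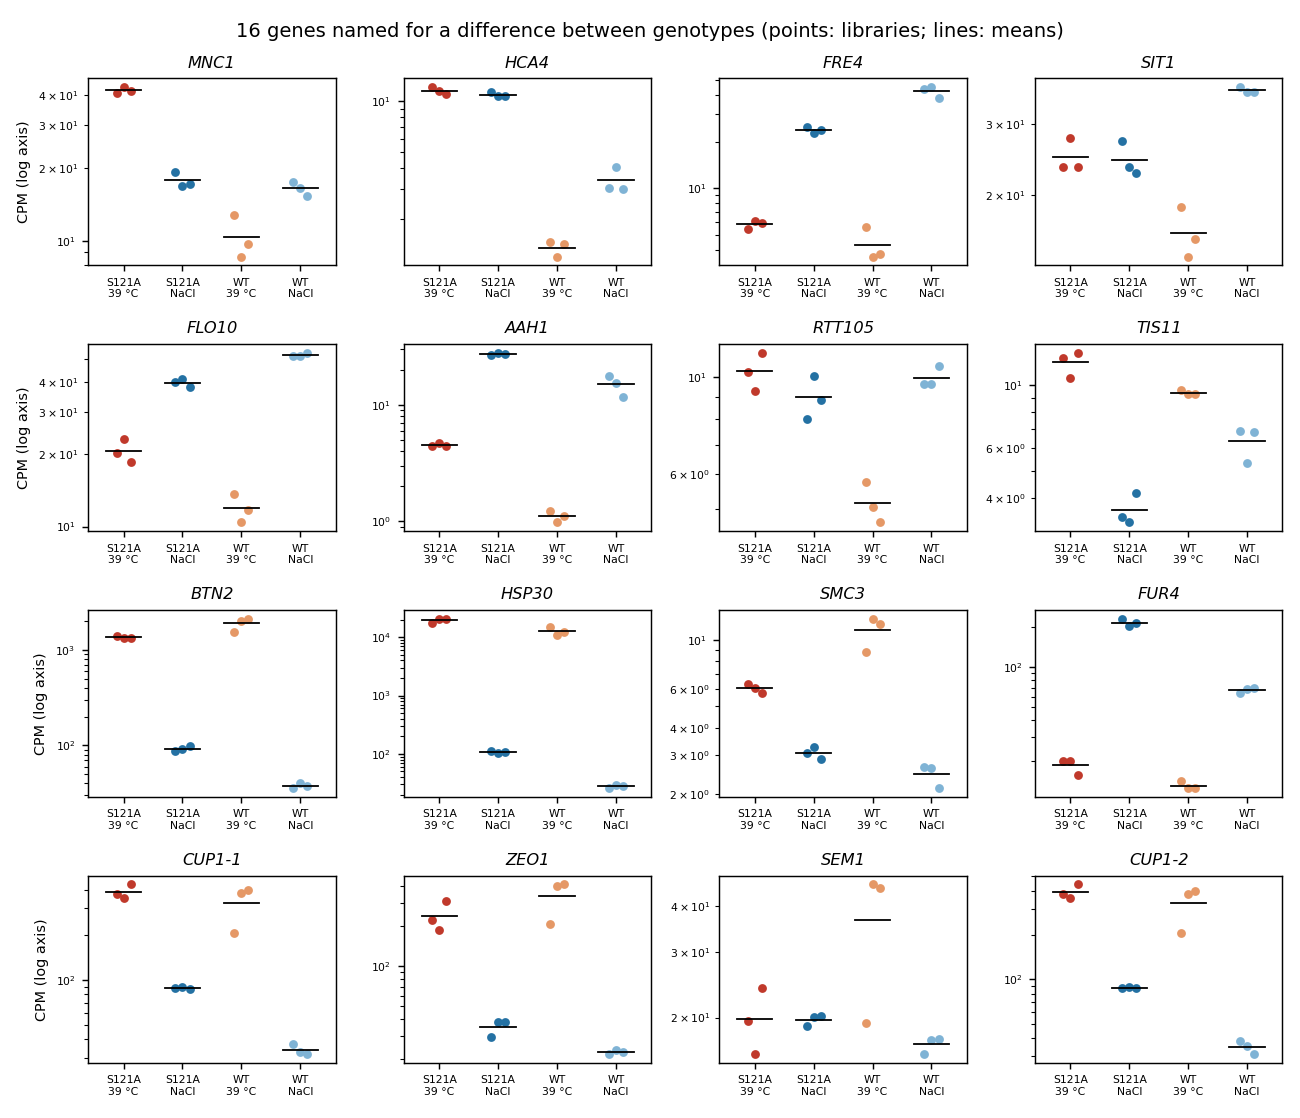
CPM on a log axis in each library of the 16 genes named for a difference between genotypes; points are libraries, horizontal lines are means, and the groups run S121A at 39 °C, S121A in NaCl, WT at 39 °C and WT in NaCl. In ZEO1, SEM1, CUP1-1 and CUP1-2, heated WT replicate 1 lies below the other 2 heated WT libraries.

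Several chaperone lists stood on the opposite side. BTN2 differed by -1.76 ± 0.14 between genotypes (edgeR adjusted p = 8.59e-07), at 1548, 2013 and 2131 CPM in heat and 35.5, 40.5 and 37.3 CPM in NaCl in WT, so the S121A NaCl libraries given above were higher than those of WT and the heated ones lower. HSP30 differed by -1.33 ± 0.14, with 14842, 11054 and 12186 CPM in heat and 25.7, 29.4 and 27.9 CPM in NaCl in WT, where the S121A libraries were higher in both stresses. Of 23 endoplasmic reticulum folding genes 11 were lower in this difference and 0 higher, beside 3.52% and 5.93% of all genes. Without WT NaCl replicate 3, S121A NaCl replicate 1 or S121A NaCl replicate 3, 7 were lower, and with the 4 groups alone 6. Of 13 Hsp90 and co-chaperone genes 8 were lower, or 6 to 8 with single libraries left out and 6 with the 4 groups alone. Of 14 Hsp40 and exchange factor genes 5 were lower and 1 higher. That lower count was 4 to 9 with single libraries left out, 9 without WT heat replicate 1, and 4 with the 4 groups alone. Of 10 small heat shock genes 4 were lower, or 3 to 5 with single libraries left out and 3 with the 4 groups alone. SSB1 (1.05 ± 0.13) and SSB2 (0.93 ± 0.13), lower in heat, went the other way. HSP60 differed by -0.01 ± 0.11 (adjusted p = 0.954). All 8 named genes on this side were called, but SEM1 (-1.11 ± 0.33) was not called in 12 and ZEO1 (-1.13 ± 0.31) not in 10 of 18 alternatives. SMC3, of cohesin, was at 6.31, 6.08 and 5.72 CPM in heat and 3.08, 3.28 and 2.89 CPM in NaCl in S121A and 8.84, 12.4 and 11.8 CPM in heat and 2.65, 2.62 and 2.13 CPM in NaCl in WT (-1.19 ± 0.19). FUR4 was lower in heat in both genotypes, with more difference in S121A (-1.16 ± 0.12). CUP1-1 (-1.13) and CUP1-2 (-1.08) are identical copies of the metallothionein gene, and their values are uncertain.

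Growth genes called different between genotypes were mostly higher in S121A in this difference. Of 137 ribosomal protein genes 27 were higher and 1 lower, beside 5.93% and 3.52% of all genes. The higher count was 40 without WT heat replicate 1, 16 without WT heat replicate 3, 17 without S121A NaCl replicate 1 and 14 with the 4 groups alone, and the lower count was 5 without WT heat replicate 1. Of 73 ribosome biogenesis genes 19 were higher and 2 lower. With the 4 groups alone 7 were higher, and without WT heat replicate 1 6 were lower. RPS0B differed by 0.72 ± 0.13 and NOP7 by 1.04 ± 0.13, with heat over NaCl at less negative values in S121A (-2.56 and -2.28) than in WT (-3.29 and -3.32). Of 55 amino acid synthesis genes 13 were higher and 1 lower, with ILV3 at 0.84 ± 0.11. Their higher count was 9 to 22 with single libraries left out, 22 without WT heat replicate 1, and 9 with the 4 groups alone.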

How the data were processed

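Per the labels' protocols, log-phase cells in YPD at 30 °C were left unstressed, heated for 10 min at 39 °C or put in 0.4 M NaCl for 15 min, total RNA was extracted with hot phenol, and stranded poly(A) libraries were sequenced. Per the submitters' processing notes the tools were featureCounts 1.4.6-p5, TopHat2 2.0.1 and DESeq2 1.10.1, on sacCer3 (R64). Strand, multimapping and fragment settings are not given in the sources used here. The authors deposited raw read counts per gene for 6746 features, whole numbers with no normalization, and every column matched 1 sample. Gene names and coordinates came from RefSeq R64, in which 6025 features matched.

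All 18 libraries were fitted together in edgeR 4.0.16 under R 4.3.3, with limma 3.58.1, TMM scaling, robust quasi-likelihood and 1 mean per group. The 6395 genes that passed filterByExpr were tested, and the others held 0.00142% of counts. Contrasts were heat minus NaCl in S121A, the same in WT, their difference, and each stress minus no stress in S121A. A gene was called at a two-sided Benjamini-Hochberg adjusted p under 0.05. Each SE is the absolute log2 fold change over the root of the F statistic. The fit was first tested on simulated data in which few genes changed, and only in the heated S121A group. That simulation does not cover the dependence on scaling described above. Levels are CPM after TMM scaling, with SD over 3 libraries.

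The comparison, its 46 gene lists and its named genes were chosen with earlier results of these data known. Named were the 15 largest differences each way that were called, had at least 10 CPM in the higher group and did not overlap between groups, up to 4 members of each list by size, all histones and strain markers, and the 8 largest differences between genotypes each way with at least 10 CPM in some group. BUB1 and SGO1 are list members under this rule. Alternatives were library totals alone, RLE size factors, DESeq2 1.42.0 (Wald test), no filter on low counts, a replicate block, only the groups compared, and each library left out in turn. No replicate pair agreed within sampling noise, with a chi-square per gene of 8.41 to 118.5. Floors of 3 counts cover counting error only. PCR reads without molecular identifiers are not independent molecules.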

Additional observations from a re-analysis of the deposited data

Results flagged for a closer look

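The difference between genotypes in heat over NaCl was itself tested, and 379 genes were higher and 225 lower in S121A than in WT in edgeR's quasi-likelihood test. Among named genes the difference, in log2 units, was 1.89 for MNC1, 1.4 for HCA4, 1.28 for FRE4, 1.21 for SIT1, 1.18 for FLO10, 1.18 for AAH1, 1.16 for RTT105 and 1.16 for TIS11. On the other side it was -1.76 for BTN2, -1.33 for HSP30, -1.19 for SMC3, -1.16 for FUR4, -1.13 for CUP1-1, -1.13 for ZEO1, -1.11 for SEM1 and -1.08 for CUP1-2. Under the 18 alternatives, 14 of the 16 were called each time. ZEO1 was not called in 10, with an adjusted p of up to 0.0930, and SEM1 not in 12, with an adjusted p of up to 0.129. Without WT heat replicate 1, whose ZEO1 and SEM1 levels lie below those of the other heated WT libraries, their differences were -1.38 and -1.41.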

How the results depend on the processing

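Scaling by library totals alone moved counts of heat against other conditions. For heat over NaCl in S121A it gave 954 genes higher and 3415 lower, with 229 and 1131 at least 2-fold, for heat over NaCl in WT 1209 higher, and for heat over no stress in S121A 1372 higher and 3899 lower. Between genotypes it gave 297 higher and 195 lower. It also reversed small values: HCA4 (-0.24), SIT1 (-0.30) and HHT1 (-0.25) for heat over NaCl, FRE4 (-0.21), RTT105 (-0.39) and ZEO1 (-0.57) for heat over no stress, and HSP60 (-0.19) and RTT105 (-0.27) for NaCl over no stress. By construction this scaling leaves the larger share of the most abundant genes in heat uncorrected. The difference between genotypes gave 190 genes higher and 73 lower with only the 4 groups compared, where fewer libraries inform the spread, and 229 to 768 higher and 94 to 724 lower with single libraries left out, of which 25 to 57 and 9 to 56 were at least 2-fold. The highest of these counts came without WT heat replicate 1. The cause was not tested. Whether replicate numbers pair the heat and NaCl libraries of S121A cannot be settled with 3 libraries per group. Same-numbered libraries deviated from their group means with correlations of 0.16, -0.52 and 0.54 over 4902 genes. The NaCl library of the same number was the best match for heat replicates 1 and 3 and not for replicate 2. Across genotypes these correlations were 0.43, 0.21 and 0.40 for NaCl and -0.19, 0.21 and 0.31 for heat. With the replicate block 1893 genes were higher and 2089 lower in heat, and 329 higher and 163 lower between genotypes. Of the named genes' values for heat over NaCl under other settings, 2449 kept direction and call, 17 lost the call, 3 gained it and 3 reversed. Between genotypes 3432 kept both, 216 lost the call and 60 gained it.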
